A study of Mus musculus with 23 samples.

Results

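DC3 and DC1a cells are populations of dendritic cells (DCs) sorted from the spleens of wild-type Balb/C mice, and here they were compared after the treatment that the labels abbreviate as TLI and do not spell out. DC1a cells were gated as CD8hi CD172- and DC3 cells as CD8- CD172lo. CD172 is the surface protein SIRPα, encoded by Sirpa. The comparison used 8 of the 23 RNA-seq libraries of the series, chosen by their labels alone: 4 of DC3 cells and 4 of DC1a cells, with 1 library of each population from each of 4 pools of TLI mice. Pools 1 and 2 belonged to batch 1 and pools 3 and 4 to batch 2, as the labels number them. Each library came from the cells of several mice, so the values are those of pools and not of single animals. The 4 libraries of the same populations from untreated Balb/C mice, 2 pools of each, were all in batch 1 and were used beside the TLI libraries. The age and sex of these mice are not given in the sources used here.

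Spleen DCs fall into classical DCs and plasmacytoid DCs. Classical type 1 DCs (cDC1) depend on the transcription factors Irf8 and Batf3, carry XCR1 and Clec9a, take up dead cells and present their antigens to CD8+ T cells. Classical type 2 DCs (cDC2) depend on Irf4, carry CD172 and present mainly to CD4+ T cells, while plasmacytoid DCs, marked by Siglech and the transcription factor Tcf4, are known for making type I interferon. Any classical DC can also mature, and a mature DC raises Ccr7, the receptor that guides it to the T-cell zone, together with costimulatory and chemokine genes.

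The libraries held 21107794 to 36997890 estimated counts each, with a median of 28444644. Levels are given below as counts per 1000000 counts of the library (CPM), and 3 counts in a library, the floor used here, corresponded to 0.0811 to 0.142 CPM. The libraries separated first by batch: on the log scale the correlation across genes between 2 libraries of the same population was 0.77 to 0.892 within a batch and 0.628 to 0.748 across batches. Several libraries also carried RNA of other cells. Hemoglobin genes summed to 111100 and 132700 CPM in the DC1a and DC3 libraries of pool 1, to 23700 and 19170 CPM in pool 2, and to between 143.3 and 639.6 CPM in the batch 2 libraries. Immunoglobulin gene segments summed to between 1473 and 17640 CPM in DC1a and between 21000 and 91440 CPM in DC3, so the populations did not overlap in that sum. The genes of the natural killer (NK) cell list summed to 4977 and 1531 CPM in the DC3 libraries of pools 1 and 2, against 208.3 to 467.1 CPM in the other 6 libraries. In bulk samples a smaller share of cells of one type and less RNA per cell cannot be told apart.

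The CD8 side of the gate was seen in the RNA. Cd8a, which encodes the α chain of CD8 and lies at chr6:71373427-71379173 on the plus strand (GRCm38), was 599.9, 849.8, 315 and 319.5 CPM in the DC1a libraries of pools 1 to 4 and 5.07, 6.46, 2.67 and 0.228 CPM in the DC3 libraries. This difference checks the labels and, since CD8 defined the gate, is not a finding. The CD172 side could not be checked as well, because Sirpa was at most 0.676 CPM in DC1a and 0.521, 5.02, 1.12 and 6.24 CPM in DC3. DC3 cells expressed Irf8 and Batf3 at levels that overlapped with those of DC1a. Irf8 was 644, 961, 622 and 661 CPM in DC1a and 514, 1123, 1004 and 787 CPM in DC3, and the fitted log2 difference was 0.04 ± 0.26 (SE). Batf3 was 180, 172, 162 and 179.8 CPM in DC1a and 196, 146, 208 and 220.3 CPM in DC3, with a log2 difference of -0.06 ± 0.20.

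Of 13619 genes tested, 95 differed between DC3 and DC1a cells after TLI at an adjusted p under 0.05 (edgeR quasi-likelihood test with a batch term, two-sided, Benjamini-Hochberg over all genes tested), or 0.698% of the genes. Of these 46 were higher in DC3 (0.338%) and 49 were lower (0.36%). For 92 of the 95 the direction was the same in all 4 pools, and for 85 the values of DC3 and DC1a did not overlap, while 6.36% of all tested genes did not overlap in either direction. The 95 were chosen by a test on these same libraries, so both counts follow in part from that choice. Genes higher in DC3 included the calcium-binding S100a4 and S100a6, the annexins Anxa1 and Anxa2 and the lectin receptors Clec4b1, Clec4a2 and Cd209a, and genes lower in DC3 included Cd8a, Cd207, the chemokine Cxcl9, the IL-12 subunit Il12b and the maturation gene Ccr7. Of the 95 calls 48.4% were higher in DC3. Scaling by library totals in place of TMM shifted the median gene by 0.208 (log2) and gave 88 calls, of which 63.6% were higher, and no direction changed among the 95. The direction of all 95 was the same with the replicate block, in which the pool of mice took the place of the batch term, but only 15 genes passed there (0.11% of genes; 12 higher, 0.0881%, and 3 lower, 0.022%), of which 14 were among the 95. The blocked adjusted p is therefore given after each adjusted p of a named gene. Leaving out 1 DC1a library left 6, 8, 13 or 10 genes past the threshold (pools 1 to 4), leaving out 1 DC3 library left 54, 73, 47 or 16, and S100a6, Serpinb10, Cxcl9 and Arpin passed in all 8 of these fits.

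**Figure D1:**
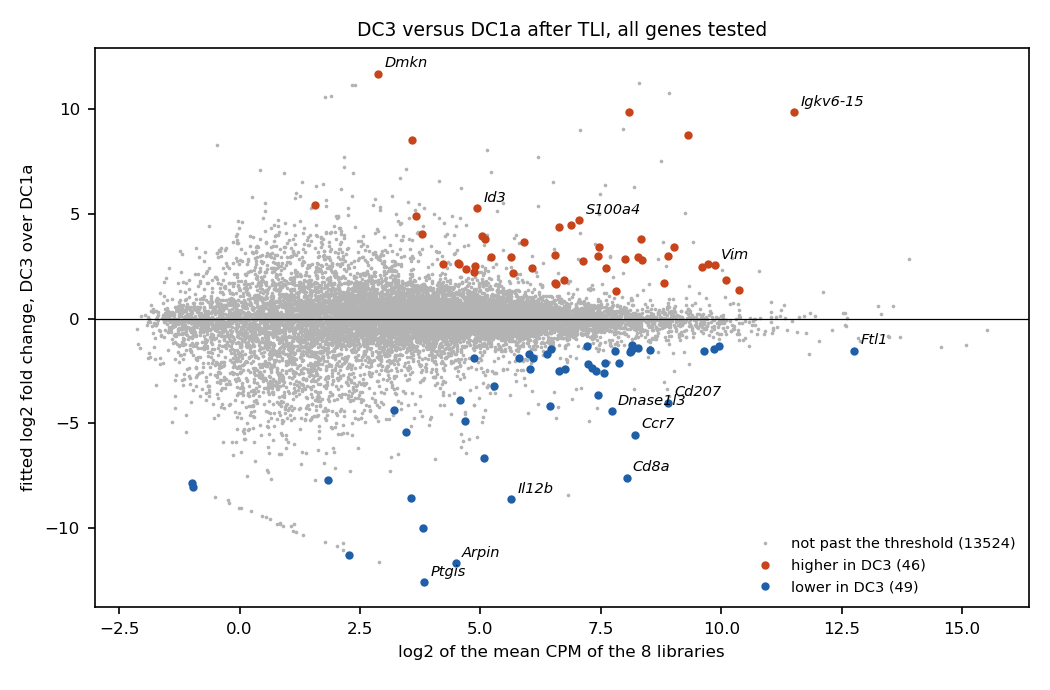
Fitted log2 fold change of DC3 over DC1a after TLI (vertical axis) against the log2 of the mean CPM of the 8 libraries (horizontal axis) for the 13619 genes tested, each point a gene. Orange points are the 46 genes higher in DC3 at an adjusted p under 0.05, blue points the 49 lower, and called genes lie at low as well as at high levels.

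S100a4, an EF-hand calcium-binding protein expressed by motile myeloid cells, was 5.94, 12.5, 11.9 and 3.94 CPM in DC1a and 276, 134, 318 and 299 CPM in DC3. No DC1a library came near a DC3 library, and the lowest DC3 value was that of pool 2. The mean was 29.9-fold higher in DC3, with a fitted log2 fold change of 4.69 ± 0.51 and an adjusted p of 0.0117 (0.0871 with the block). Its neighbour S100a6, which starts 6837 bases after S100a4 ends and was chosen here after its values were seen, had the smallest adjusted p of all genes. S100a6 was 42.8, 54.3, 70.5 and 79.6 CPM in DC1a and 399, 387, 711 and 714 CPM in DC3. Its log2 fold change was 2.93 ± 0.18, with 2.88 within batch 1 and 2.98 within batch 2, and its adjusted p was 0.00463 (0.0405 with the block).

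The stretches of 250 bases before the start sites of the neighbours S100a4 and S100a6, of the gate gene Cd8a and of the lectin gene Clec4b1 are printed to show what lies upstream of genes that differed in either direction. They are RefSeq promoters of GRCm38.p6, all on the plus strand, at chr3:90603520-90603769, chr3:90612644-90612893, chr6:71373177-71373426 and chr6:123049712-123049961 in that order. Capitals mark matches, on either strand, to the composite PU.1 and IRF element (GGAA, any 2 bases, GAAA) in Cd8a and to the core of the interferon-stimulated response element (GAAA, any 2 bases, GAAA) in Clec4b1. Capitals in these windows read the reverse complement.
S100a4: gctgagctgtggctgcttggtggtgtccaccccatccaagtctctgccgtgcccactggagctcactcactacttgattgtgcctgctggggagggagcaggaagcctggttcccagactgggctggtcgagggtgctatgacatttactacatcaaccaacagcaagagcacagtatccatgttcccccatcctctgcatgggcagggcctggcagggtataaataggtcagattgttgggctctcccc
S100a6: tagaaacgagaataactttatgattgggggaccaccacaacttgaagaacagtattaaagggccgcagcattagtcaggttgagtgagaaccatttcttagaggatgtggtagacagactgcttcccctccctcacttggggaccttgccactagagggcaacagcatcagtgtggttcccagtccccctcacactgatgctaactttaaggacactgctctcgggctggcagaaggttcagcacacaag
Cd8a: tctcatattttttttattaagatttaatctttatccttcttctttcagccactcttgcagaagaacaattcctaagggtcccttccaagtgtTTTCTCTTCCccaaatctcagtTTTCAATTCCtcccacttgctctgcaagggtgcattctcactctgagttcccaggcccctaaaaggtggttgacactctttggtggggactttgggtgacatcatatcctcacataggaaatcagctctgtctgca
Clec4b1: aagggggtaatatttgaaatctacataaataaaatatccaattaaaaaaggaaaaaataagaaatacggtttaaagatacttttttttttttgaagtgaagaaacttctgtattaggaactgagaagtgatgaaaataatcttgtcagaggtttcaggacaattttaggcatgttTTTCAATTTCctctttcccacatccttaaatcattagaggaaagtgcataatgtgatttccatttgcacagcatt
The first bases of the matches in Cd8a lie 158 and 136 bases before the start site, and that in Clec4b1 lies 75 bases before it. Among the called genes with a RefSeq promoter window (300 bases, including 50 after the start), the composite element was found in 3 of 34 genes that rose (8.8%) and 2 of 32 that fell (6.2%), against 3.2% of all 27025 genes with a window. The response-element core was found in 3 of the 34 (8.8%) and 2 of the 32 (6.2%), against 4.0% of all genes. These elements differ at their second base, so no match counts for both. The NF-κB motif (GGGA, any 2 bases, TTCC) was in none of the 34 or the 32 windows and in 1.6% of all genes, which says only that these letters are not there.

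S100a10, the partner of annexin A2 and also picked after its values were seen, was 60.6, 67.9, 119 and 70.8 CPM in DC1a and 1069, 578, 1111 and 1075 CPM in DC3 (log2 fold change 3.41 ± 0.31, adjusted p = 0.00816, 0.0427 with the block). Anxa2, the membrane-binding annexin it pairs with, was 289, 413, 112 and 66.5 CPM in DC1a and 1227, 3163, 743 and 716 CPM in DC3, without overlap, and its mean was 6.64-fold higher (adjusted p = 0.0205, 0.0656 with the block). Anxa1, a second annexin and, immunoglobulin segments aside, the called gene of highest level among those higher in DC3, was 773, 1062, 423 and 492 CPM in DC1a and 1958, 2833, 1451 and 1621 CPM in DC3 (log2 fold change 1.36 ± 0.20, adjusted p = 0.0373, 0.0991 with the block). Vim, which encodes the intermediate filament protein vimentin, was 176, 186, 260.2 and 263 CPM in DC1a and 795, 1078, 2927 and 1757 CPM in DC3, a mean 7.41-fold higher (adjusted p = 0.0092, 0.0565 with the block). Emp1, a tetraspan membrane protein, was 1.34, 3.27, 7.78 and 3.45 CPM in DC1a and 47.8, 20, 51.5 and 138 CPM in DC3, so every DC3 library lay above every DC1a library (adjusted p = 0.0403, 0.21 with the block).

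The lectin genes Clec4b1, Clec4a2 and Cd209a rose, as did Fcer1g, Ms4a4c and Ms4a6c. Clec4b1, an activating lectin receptor on chromosome 6, was 4.47, 2.94, 15.5 and 18.5 CPM in DC1a and 168, 92.7, 324 and 314 CPM in DC3. Its mean was 21.7-fold higher, its log2 fold change 4.47 ± 0.39 and its adjusted p 0.00816 (0.0424 with the block). Clec4a2, the inhibitory receptor DCIR, lies 34873 bases from it. Clec4a2 was 2.81, 3.79, 5.35 and 1.39 CPM in DC1a and 63, 25.7, 81.5 and 78.8 CPM in DC3, a mean 18.7-fold higher (adjusted p = 0.0357, 0.151 with the block). Cd209a, a DC-SIGN homologue, was 22.3, 17.1, 10.6 and 19.8 CPM in DC1a and 172, 218, 109.9 and 173 CPM in DC3, with a log2 fold change of 3.05 ± 0.32 (adjusted p = 0.00992, 0.0424 with the block). In each of these 3 lectin genes the DC3 values lay above all DC1a values. Fcer1g, the signalling chain used by activating lectins and Fc receptors, was 71.2, 54.7, 133 and 128 CPM in DC1a and 948, 433, 960.2 and 1070 CPM in DC3 (log2 fold change 3.01 ± 0.34, adjusted p = 0.013, 0.0427 with the block). Ms4a4c, a membrane protein that crosses the membrane 4 times, was 7.81, 8.31, 10.4 and 5.19 CPM in DC1a and 227, 119.9, 202 and 207 CPM in DC3, a mean 23.9-fold higher (adjusted p = 0.00562, 0.0424 with the block). Ms4a6c, 42120 bases away from it and chosen after its values were seen, was 30.4, 30.8, 126 and 125 CPM in DC1a and 311, 244, 858 and 894 CPM in DC3 (adjusted p = 0.0056, 0.0424 with the block). Of the 23 lectin receptors tested, 4 rose (0.338% of all genes did) and 1 fell, with a median log2 fold change of 0.302 against 0 over all genes. The member that fell was Cd207, described with the cDC1 genes.

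Cd7, Klrd1, Sh2d1b1 and Cd244a, genes known from lymphocytes and NK cells, rose. The other sorted DC populations of TLI mice, described below, carried them too. Cd7, a membrane glycoprotein of T and NK cells, was 35.7, 25.3, 19.5 and 12.7 CPM in DC1a and 564, 472, 133 and 149 CPM in DC3 (log2 fold change 3.40 ± 0.34, adjusted p = 0.00985, 0.0656 with the block). It was highest in the DC3 libraries of batch 1. Klrd1, which encodes CD94, was 10.9, 9.63, 6.68 and 3.99 CPM in DC1a and 246, 52.3, 78.1 and 73 CPM in DC3, a mean 14.4-fold higher (adjusted p = 0.0362, 0.0991 with the block). The adaptor Sh2d1b1, which binds SLAM receptors, was 1.55, 2.24, 0.324 and 0.109 CPM in DC1a and 42.2, 22.8, 19.9 and 12.1 CPM in DC3 (adjusted p = 0.0368, 0.163 with the block). Cd244a, the SLAM receptor 2B4 (named after its values were seen), was 17.2, 11.4, 7.43 and 6.54 CPM in DC1a and 93.6, 91.3, 87.1 and 82.9 CPM in DC3, nearly level across the DC3 pools (adjusted p = 0.00985, 0.0646 with the block). The NK cell list had its highest sums in the DC3 libraries of batch 1, at 4977 and 1531 CPM. Of the 13 NK genes tested, Klrd1 alone was called (0.338% of all genes rose), and the median log2 fold change was 2.40. At an unadjusted p under 0.05 by edgeR, 6 were higher and 0 lower (5.19% and 5.48% of all genes). DESeq2 called 5 higher and 0 lower (2.72% and 3.69% of all genes). The natural cytotoxicity receptor Ncr1 was 61.4, 36.5, 5.73 and 0 CPM in DC1a and 1112, 340.5, 0 and 0 CPM in DC3. In the batch 2 DC3 libraries Ncr1 and Eomes were at 0, but other genes of the list were present, and the list summed to 300.2 and 467.1 CPM there against 208.3 and 232.1 CPM in DC1a. Klrk1, which encodes NKG2D, was 125 and 298 CPM in these DC3 libraries and 138 and 200.3 CPM in DC1a, Klre1 was 16.4 and 5.78 against 0.513 and 3.12 CPM, and the granzyme gene Gzma was 14 and 34.7 against 24.4 and 0 CPM. In the same libraries Klrd1 was 78.1 and 73 CPM against 6.68 and 3.99 CPM in DC1a, a log2 fold change within batch 2 of 3.55 beside 3.78 within batch 1. The part of NK cells in these differences was not tested.

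The remaining large rises were of varied function. Id3, an inhibitor of E-protein transcription factors, was 2.22, 2.61, 0.297 and 1.11 CPM in DC1a and 19.6, 94.4, 51.4 and 73.6 CPM in DC3 (log2 fold change 5.27 ± 0.78, adjusted p = 0.0378, 0.159 with the block). Dmkn, the secreted protein dermokine, was at 0 counts in every DC1a library and 10.8, 9.05, 14.5 and 24.3 CPM in DC3, at least 155-fold higher against a floor of 3 counts per library (adjusted p = 0.0372, 0.278 with the block). Kcne3, a potassium channel β subunit, had 10 counts in 1 DC1a library and 0 in the other 3, and was 9.38, 16.8, 47.5 and 22.1 CPM in DC3 (adjusted p = 0.0457, 0.184 with the block). L1cam, a neural cell adhesion molecule, was 2.0, 0.404, 1.57 and 1.25 CPM in DC1a and 16.8, 19.5, 49 and 20.4 CPM in DC3 (adjusted p = 0.0466, 0.151 with the block). Gas7 had the lowest DC3 level of the named genes that rose, at 4.12, 7.46, 8.86 and 2.82 CPM in DC3 and at most 0.184 CPM in DC1a (adjusted p = 0.0403, 0.187 with the block). Gpr183, the oxysterol receptor that positions DCs and B cells in the spleen, was 41.8, 51.2, 32.1 and 14.6 CPM in DC1a and 286, 464, 244 and 247 CPM in DC3 (log2 fold change 2.99 ± 0.30, adjusted p = 0.00985, 0.0565 with the block). Serpinb10, a protease inhibitor named here because it passed in every fit without 1 library, was 23.9, 29.9, 33.2 and 41.4 CPM in DC1a and 219.9, 214, 308 and 254 CPM in DC3 (adjusted p = 0.00518, 0.0424 with the block).

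**Figure D2:**
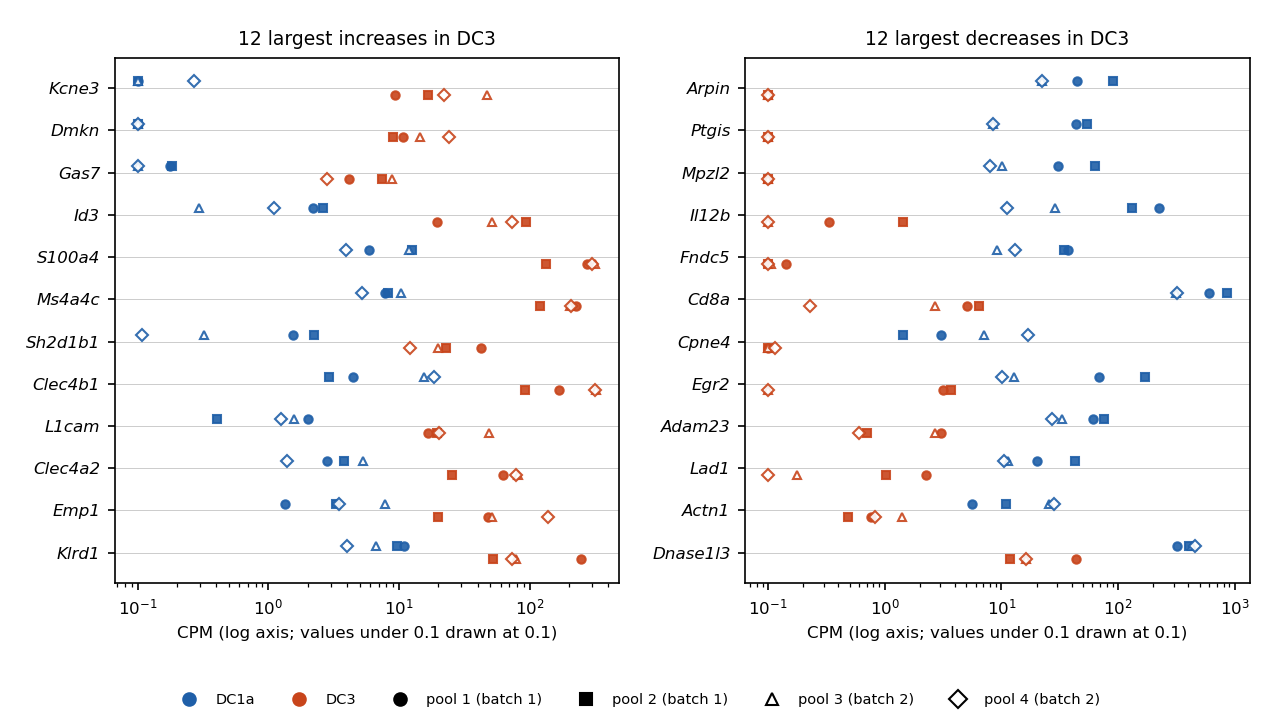
CPM (horizontal log axis, values under 0.1 drawn at 0.1) of the 12 genes with the largest increase and the 12 with the largest decrease in mean CPM from DC1a (blue) to DC3 (orange), 1 point per library, with marker shape for the pool and open markers for batch 2. For every gene shown, the 4 DC3 points lie on one side of the 4 DC1a points. The genes were chosen among calls in these libraries with 1 direction in all 4 pools.

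Among the 49 genes lower in DC3, some were at or near 0 there. Ptgis, prostacyclin synthase, was 43.2, 53.6, 8.41 and 8.47 CPM in DC1a and had no count in any DC3 library, at least 256-fold lower against the floor (adjusted p = 0.013, 0.211 with the block). Arpin, an inhibitor of the actin-nucleating Arp2/3 complex, was 44.7, 90.5, 22.4 and 22.1 CPM in DC1a and had 1 count in all DC3 libraries together (adjusted p = 0.0056, 0.0427 with the block). Mpzl2, an adhesion protein, was 30.3, 62.9, 10 and 7.93 CPM in DC1a and had 2 counts in DC3, both in pool 3 (adjusted p = 0.0194, 0.101 with the block). These 3 genes were higher in the DC1a libraries of batch 1 than in those of batch 2. Fndc5, the precursor of irisin, was 37.3, 34.5, 9.24 and 13.1 CPM in DC1a and at most 3 counts in a DC3 library (adjusted p = 0.0302, 0.139 with the block). Cpne4, a calcium-dependent phospholipid-binding copine, was 3.02, 1.43, 7.14 and 16.8 CPM in DC1a and had 2 and 4 counts in the DC3 libraries of pools 3 and 4 and 0 in the others (adjusted p = 0.0296, 0.121 with the block). Lad1, an anchoring protein of basement membranes, was 20.1, 42.4, 11.3 and 10.6 CPM in DC1a and 2.27, 1.03, 0.176 and 0.0854 CPM in DC3 (adjusted p = 0.0362, 0.174 with the block). Adam23, a disintegrin without protease activity, was 60.9, 76, 33 and 27.2 CPM in DC1a and 3.03, 0.702, 2.71 and 0.598 CPM in DC3, a mean 28-fold lower (adjusted p = 0.0361, 0.0996 with the block). Actn1, an actin cross-linker, was 5.59, 10.9, 25.4 and 27.9 CPM in DC1a and 0.758, 0.48, 1.41 and 0.826 CPM in DC3 (adjusted p = 0.0248, 0.151 with the block).

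Genes of high level were also lower. Dnase1l3, a secreted nuclease that degrades DNA of dead cells, was 321, 406, 426 and 454 CPM in DC1a and 43.1, 11.9, 16.3 and 16.2 CPM in DC3, a mean 18.3-fold lower (log2 fold change -4.43 ± 0.51, adjusted p = 0.0148, 0.0678 with the block). Ftl1, the ferritin light chain that stores iron, was the called gene of highest level: 10620, 9127, 10380 and 9104 CPM in DC1a and 3914, 5501, 2966 and 3588 CPM in DC3, a mean 2.46-fold lower (adjusted p = 0.0409, 0.193 with the block). Its pseudogenes Ftl1-ps1 and Ftl2-ps, with log2 fold changes of -1.53 and -1.55, and Gm22133, which lies inside Ftl1, were called too. Reads could be split among such near-identical or overlapping genes, so the 4 calls are not independent. In all, 31 of the 95 called genes overlap another annotated gene. Tspan13, a tetraspanin, was 583, 746, 404 and 344 CPM in DC1a and 203, 378, 147 and 146 CPM in DC3, with an overlap between pool 2 of DC3 and pool 4 of DC1a (adjusted p = 0.0402, 0.0996 with the block).

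Apart from the gate gene Cd8a, 28 cDC1 identity genes were tested. Of these, 3 fell (Cd207, Plpp1 and Gcsam), none rose, and the median log2 fold change was -1.01, where 0.36% of all genes fell and their median was 0. None of the 3 passed with the block. With Cd8a counted, 0 of 29 were higher and 14 lower at an unadjusted p under 0.05 by edgeR (5.19% and 5.48% of all genes). DESeq2 called 0 of the 29 higher and 13 lower (2.72% and 3.69% of all genes). Cd207, the lectin langerin, was 1211, 1470, 414 and 407 CPM in DC1a and 54.1, 201, 30.8 and 15.4 CPM in DC3, a mean 11.6-fold lower (log2 fold change -4.01 ± 0.47, adjusted p = 0.0151, 0.0565 with the block). Plpp1, a phospholipid phosphatase, was 238, 273, 94.5 and 106 CPM in DC1a and 37.4, 74.6, 30.9 and 14.1 CPM in DC3 (adjusted p = 0.0225, 0.0901 with the block). Gcsam, a signalling adaptor first known from germinal centres, was 440.3, 482, 406 and 392 CPM in DC1a and 156, 254, 164 and 189 CPM in DC3 (adjusted p = 0.0362, 0.112 with the block). The cDC1 receptors did not pass the test. Xcr1, the receptor for the chemokine XCL1, was 566, 1088, 617 and 707 CPM in DC1a and 185, 453, 209 and 263 CPM in DC3 (log2 fold change -1.64 ± 0.32, adjusted p = 0.0806, 0.0678 with the block), and Clec9a, the receptor for exposed actin of dead cells, was 339.8, 380, 593 and 591 and 213, 214, 366 and 319 CPM (log2 fold change -0.98 ± 0.16, adjusted p = 0.0503, 0.184 with the block). The adhesion molecule Cadm1 was 344, 695, 121 and 89.9 CPM in DC1a and 107, 227, 11.8 and 37.5 CPM in DC3 (adjusted p = 0.121, 0.227 with the block).

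Apart from the gate gene Sirpa, 25 cDC2 identity genes were tested. Of these, 5 rose (S100a4, Ms4a4c, Clec4a2, Cd7 and Cd209a) and Relb fell, where 0.338% of all genes rose and 0.36% fell. Their median log2 fold change was 1.44. With the block 2 of the list passed, both higher in DC3. With Sirpa counted, 11 of 26 were higher and 4 lower at an unadjusted p under 0.05 by edgeR (5.19% and 5.48% of all genes). DESeq2 called 8 of the 26 higher and 4 lower (2.72% and 3.69% of all genes). Among the genes that define cDC2 cells, only Cd209a was called. Irf4 was 3.87, 1.84, 1.35 and 1.66 CPM in DC1a and 21, 2.84, 10.7 and 0.199 CPM in DC3, with groups that overlapped (adjusted p = 0.668, 0.874 with the block). Itgam, the CD11b integrin chain, was at most 0.324 CPM in DC1a and 0.237, 5.65, 12.4 and 6.55 CPM in DC3, and Clec4a4 and Mgl2 had no count in the batch 2 DC3 libraries. None of these 3 passed the filter on low counts. Klf4, a transcription factor of a cDC2 branch, was 14.2, 15.6, 23.8 and 33.2 CPM in DC1a and 65.1, 31.7, 221 and 173 CPM in DC3 and missed the threshold (adjusted p = 0.0546, 0.21 with the block).

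Of 22 plasmacytoid DC genes tested, Ly6c2 rose (0.338% of all genes did) and none fell, and the median log2 fold change was 1.54. At an unadjusted p under 0.05 by edgeR, 10 were higher and 0 lower (5.19% and 5.48% of all genes). DESeq2 called 8 higher and 0 lower (2.72% and 3.69% of all genes). The DC3 values lay wholly above those of DC1a for 8 (3.71% of all genes). The call of Ly6c2 was lost with the block. Ly6c2, a member of the Ly6C surface antigen pair, was 33.5, 11.2, 13.6 and 17.1 CPM in DC1a and 126, 97.8, 130.2 and 111 CPM in DC3 (adjusted p = 0.0466, 0.0861 with the block). Siglech had no count in DC1a and was 7.58, 12.4, 18.4 and 3.3 CPM in DC3, and missed the threshold (adjusted p = 0.0667, 0.311 with the block). Tcf4 was 15, 9.6, 7.95 and 15.6 CPM in DC1a and 33.9, 36, 53.9 and 25.1 CPM in DC3 (adjusted p = 0.226, 0.389 with the block), while Bst2, Ccr9 and Spib overlapped between the populations.

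**Figure D3:**
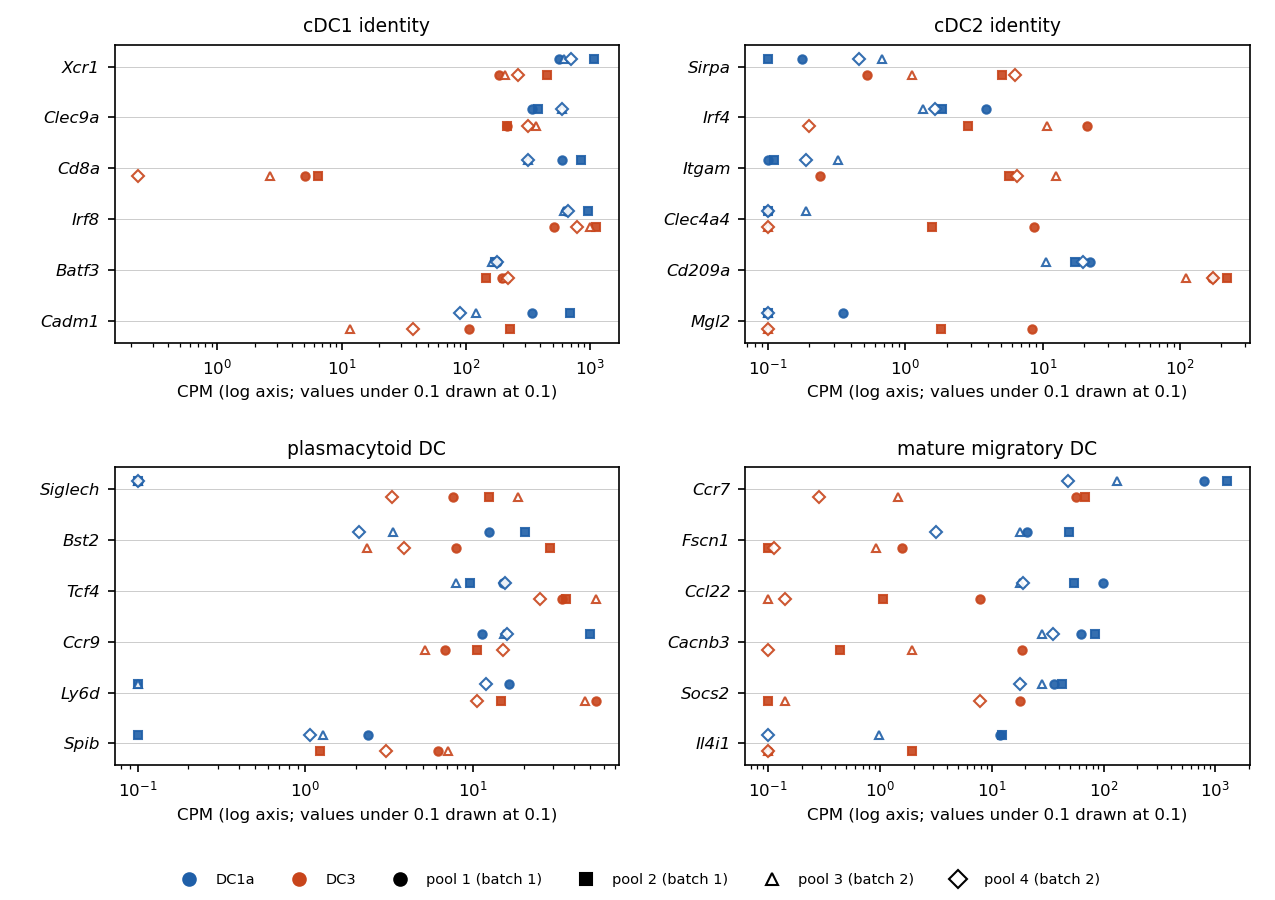
CPM (horizontal log axis, values under 0.1 drawn at 0.1) of the defining genes of 4 DC lists in the 4 DC1a (blue) and 4 DC3 (orange) libraries after TLI, 1 point per library, with marker shape for the pool and open markers for batch 2. Irf8 and Batf3 overlap between the populations, Cd8a and Cd209a do not, and Ccr7 differs by batch as well as by population.

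Of 30 genes of mature migratory DCs tested, 4 fell (Il12b, Ccr7, Tbc1d4 and Relb, where 0.36% of all genes fell), none rose and 26 did not pass. None of the 4 passed with the block. By edgeR 0 of the 30 were higher and 22 lower at an unadjusted p under 0.05 (5.19% and 5.48% of all genes). DESeq2 called 0 of the 30 higher and 20 lower (2.72% and 3.69% of all genes). Of the 30, 15 had all DC3 values below all DC1a values (of all genes 2.65% lay wholly below and 3.71% wholly above), and the median log2 fold change was -2.77. Their summed level was 2853 to 8979 CPM in DC1a and 673.3 to 4341 CPM in DC3 and was lower in DC3 in each of the 4 pools. Il12b, the p40 subunit of IL-12, was 224, 132, 28.8 and 11.1 CPM in DC1a and 0.332, 1.44, 0 and 0 CPM in DC3, a mean 224-fold lower (adjusted p = 0.013, 0.0861 with the block). Ccr7 was 794, 1261, 132 and 48.3 CPM in DC1a and 56.7, 68.4, 1.44 and 0.285 CPM in DC3. It was lower in DC3 within each pool, but the DC3 values of batch 1 exceeded the lowest DC1a value, that of pool 4 (log2 fold change -5.54 ± 0.87, adjusted p = 0.043, 0.149 with the block). Tbc1d4, a Rab GTPase-activating protein, was 192, 245, 246 and 266 CPM in DC1a and 38.8, 52.5, 81.6 and 78 CPM in DC3 (adjusted p = 0.00842, 0.053 with the block). Relb, the NF-κB subunit of DC maturation, was 50.8, 57.4, 35.6 and 31.7 CPM in DC1a and 17.5, 22.6, 9.84 and 8.37 CPM in DC3 (adjusted p = 0.0378, 0.17 with the block). Among the defining genes that missed the threshold, the actin bundler Fscn1 was 20.9, 49.5, 17.7 and 3.18 CPM in DC1a and 1.56, 0, 0.914 and 0.114 CPM in DC3 (adjusted p = 0.22, 0.328 with the block), and the chemokine Ccl22 was 98.9, 54.5, 18 and 19.2 and 7.86, 1.07, 0 and 0.142 CPM (adjusted p = 0.112, 0.213 with the block). Cacnb3, Socs2 and Il4i1 also missed it, with log2 fold changes of -4.14, -2.48 and -4.73. The batch 1 DC1a libraries were the highest for Ccr7, Ccl22 and Il12b.

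Of 15 chemokines tested, 3 fell (0.36% of all genes did) and 1 rose (0.338%), with a median log2 fold change of -2.37, and 1 passed with the block. Cxcl9, the interferon-γ-induced ligand of CXCR3, was 200, 346, 392 and 328 CPM in DC1a and 21.8, 27.9, 41.1 and 24.7 CPM in DC3, with nearly equal log2 fold changes of -3.60 and -3.73 within batches 1 and 2 (overall -3.66 ± 0.27, adjusted p = 0.00518, 0.0405 with the block). Ccl2, a ligand of the monocyte receptor CCR2, was 158, 200.1, 168 and 129 CPM in DC1a and 16.1, 7.39, 15.5 and 3.81 CPM in DC3 (adjusted p = 0.0175, 0.0646 with the block). Cxcl16, the ligand of CXCR6, was 462, 509, 156 and 108 CPM in DC1a and 76, 156, 12.9 and 27.9 CPM in DC3, with groups that overlapped across batches (adjusted p = 0.0372, 0.151 with the block). Ccl6, the chemokine that rose, was 30.2, 33.2, 49.3 and 44.9 CPM in DC1a and 110, 109, 250.2 and 225 CPM in DC3 (adjusted p = 0.00992, 0.071 with the block). Of 18 cytokines, Il12b and Tnf fell. Tnf was 55.7, 90.9, 13.9 and 17.8 CPM in DC1a and 6.54, 2.29, 0.808 and 2.31 CPM in DC3 (adjusted p = 0.0372, 0.121 with the block). Of 16 chemokine receptors, Gpr183 rose and Ccr7 fell.

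In the other lists few members were called, where 0.338% of all genes rose and 0.36% fell. Lists share members, so Relb, Il12b and Ccr7 are counted in more than 1 list. Of 20 genes of MHC class II presentation, H2-Oa fell and the median log2 fold change was -0.583. At an unadjusted p under 0.05 by edgeR 0 of these 20 were higher and 8 lower, and DESeq2 called 0 higher and 5 lower. H2-Oa, a chain of the peptide-loading modulator H2-O, was 353, 353, 168 and 146 CPM in DC1a and 56.7, 144, 37.4 and 19.8 CPM in DC3 (adjusted p = 0.0391, 0.112 with the block). Of 25 immediate early genes, Egr2 fell, from 68.8, 169.6, 12.8 and 10.2 CPM in DC1a to 3.13, 3.69, 0 and 0 CPM in DC3 (adjusted p = 0.0445, 0.201 with the block), and Egr2 is a zinc-finger factor induced by receptor signals. Of 46 DC transcription factors Id3 rose and Relb fell, of 25 integrin and adhesion genes Adam23 fell, and of 11 Fc and complement receptors Fcer1g rose. No member was called among 40 cell cycle genes, 28 type I interferon-stimulated genes, 22 Toll-like receptor genes, 21 p53 targets, 20 genes of MHC class I presentation or 19 costimulatory and inhibitory genes with edgeR. At an unadjusted p under 0.05 by edgeR these lists held 0, 3, 1, 1, 0 and 2 genes higher and 0, 0, 2, 4, 7 and 5 lower. In these lists DESeq2 called 0, 2, 0, 1, 0 and 2 genes higher and 0, 1, 1, 3, 7 and 3 lower. The median log2 fold changes of the lists were -0.304, 0.279, -0.246, -0.454, -0.596 and -1.04 in that order. Over all genes, 5.19% were higher and 5.48% lower in DC3 at an unadjusted p under 0.05 (10.7% together), and DESeq2 called 6.42% (2.72% higher and 3.69% lower).

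Genes of other cell types were mostly higher in sum in DC3. Over all genes, 5.19% were higher and 5.48% lower in DC3 at an unadjusted p under 0.05 by edgeR. DESeq2 called 2.72% of all genes higher and 3.69% lower. The B cell list, immunoglobulin constant genes included, was 1155 to 9115 CPM in DC1a and 11540 to 58020 CPM in DC3. Of its 16 tested genes 0 were called by edgeR, with 5 higher and 1 lower at an unadjusted p under 0.05. DESeq2 called 4 of them higher and 1 lower. Iglc1, an immunoglobulin light chain constant gene, was 107, 1.73, 5.78 and 24.7 CPM in DC1a and 3261, 22.7, 229 and 1214 CPM in DC3 and passed only with the block (adjusted p = 0.335, 0.0424 with the block). Ebf1 was at or under the floor in every DC1a library and Pax5 in every DC3 library. The only immunoglobulin segments called were Igkv12-44, Igkv6-15 and Igkv12-41, out of 58 tested. Igkv6-15 was 0, 0, 8.97 and 11.2 CPM in DC1a and 0.237, 0, 6704 and 16720 CPM in DC3, so its difference rested on the batch 2 libraries (adjusted p = 0.00992, 0.0424 with the block). The T cell list summed to 6.65 to 294.3 CPM in DC1a and 11.4 to 905.5 CPM in DC3, with 0 of 14 called by edgeR. It held 1 gene higher and 0 lower at an unadjusted p under 0.05 by edgeR, and DESeq2 called 1 higher and 0 lower. Cd3e and Trac had no count in batch 2. Cd3d, another chain of the T-cell receptor complex, was 3.97 and 6.0 CPM in the batch 2 DC1a libraries and 2.39 and 17.3 CPM in those of DC3, and Cd3g was at 0 in batch 2 apart from 8.29 CPM in DC3 pool 4. The monocyte and macrophage list summed to 908.7 to 3073 CPM in DC1a and 1822 to 4997 CPM in DC3, with 0 of 19 called by edgeR. Its members went both ways, with 3 higher and 3 lower at an unadjusted p under 0.05 by edgeR. DESeq2 called 3 higher and 3 lower, and the median log2 fold change was -0.039. Fcgr1 was at or under the floor in DC1a and Mertk in DC3. The neutrophil list summed to 11.9 to 39.98 CPM in DC1a and 43.3 to 146.3 CPM in DC3, with 0 of 5 called by edgeR. It held 1 gene higher and 0 lower at an unadjusted p under 0.05 by edgeR, and DESeq2 called 1 higher and 0 lower. Elane was at or under the floor in all 8 libraries. The erythroid list, 157.1 to 115600 CPM in DC1a and 386.8 to 134900 CPM in DC3, followed the pools, with 0 of 15 called by edgeR. It held 0 genes higher and 2 lower at an unadjusted p under 0.05 by edgeR, and DESeq2 called 0. Progenitor genes summed to 163.8 to 380.4 CPM in DC1a and 203.9 to 364.8 CPM in DC3, with 0 of 10 called by edgeR. They held 2 genes higher and 0 lower at an unadjusted p under 0.05 by edgeR, and DESeq2 called 1 higher and 0 lower. The part of these cells in the differences above was not tested. With hemoglobin and immunoglobulin genes taken out before scaling, 95 genes were called, 91 of them among the 95 above. Without both pool 1 libraries, 12 were called, 11 of them shared.

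**Figure D4:**
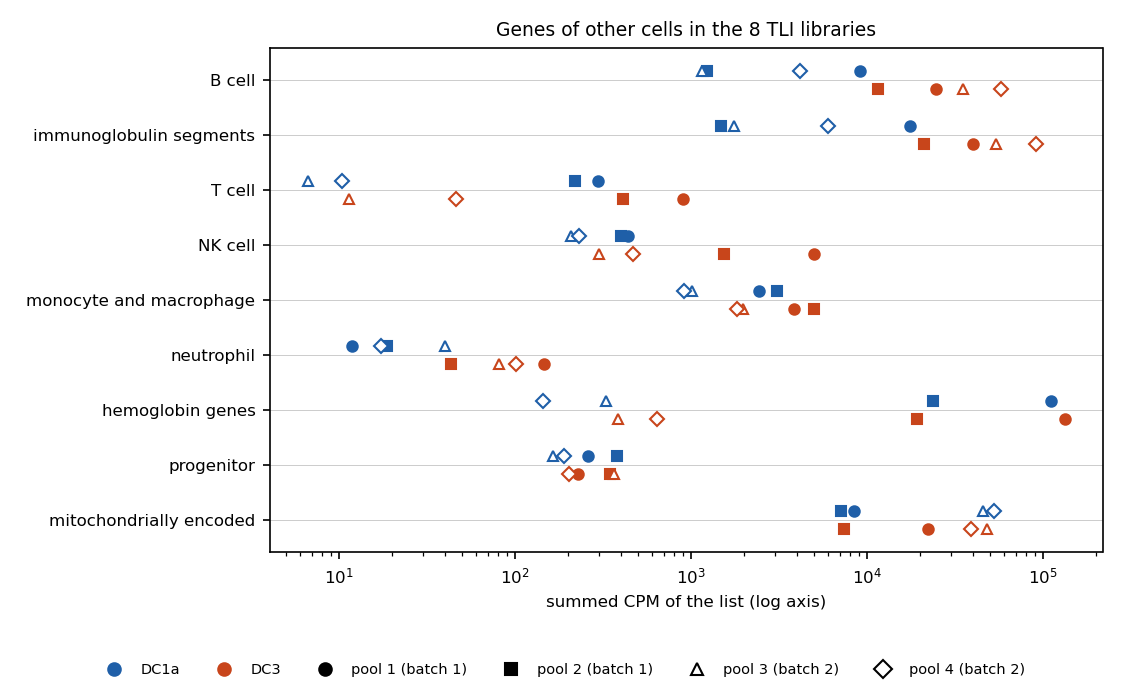
Summed CPM (horizontal log axis) of gene lists of other cell types, of immunoglobulin segments, of hemoglobin genes and of mitochondrially encoded genes in the 4 DC1a (blue) and 4 DC3 (orange) libraries after TLI, 1 point per library, with marker shape for the pool and open markers for batch 2. Immunoglobulin segments lie higher in every DC3 library (21000 CPM or more) than in any DC1a library, and hemoglobin genes and the T cell list lie higher in batch 1 than in batch 2 in both populations.

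The same contrast in untreated mice used libraries that had no part in the calls above. Of the 91 called genes that could be fitted there, 90 had the same direction in untreated mice, and the exception was the predicted gene Gm15512 with a log2 fold change of 0.10. The share of all tested genes with equal direction is not given here, so 90 of 91 has no background beside it. No gene passed the threshold in the 2 against 2 untreated libraries by edgeR, out of 14427 tested, while 2213 had an unadjusted p under 0.05 (15.3%). S100a6 was 69.4 and 70 CPM in untreated DC1a and 492 and 582 CPM in untreated DC3, and S100a4 was 4.04 and 12.7 and 179.8 and 274 CPM. Cxcl9 was 431 and 449 CPM in untreated DC1a and 35.8 and 29.4 CPM in untreated DC3, and Il12b was 98.8 and 109 and 4.46 and 0.157 CPM. Ccr7 had a fitted log2 fold change of -2.23 in untreated mice, all of batch 1, and of -5.54 after TLI over both batches. Within batch 1 the TLI value was -4.18, and within batch 2 it was -7.02. No gene passed the test of the difference between treatments by edgeR (0 of 17271, 849 at an unadjusted p under 0.05, or 4.92%, and 219 by DESeq2, or 1.27%). Nor did any gene pass the test of a difference between batches by edgeR (0 of 15963, 926 at an unadjusted p under 0.05, or 5.8%, and 269 by DESeq2, or 1.69%). Fitted alone, batch 1 gave no called gene (836 at an unadjusted p under 0.05) and batch 2 gave 1.

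**Figure D5:**
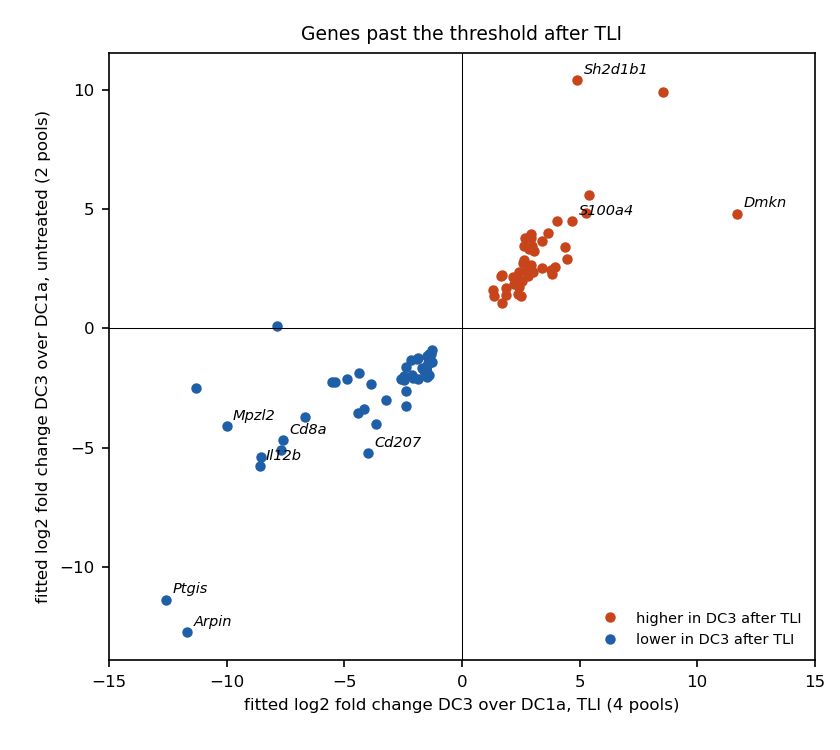
Fitted log2 fold change of DC3 over DC1a after TLI (horizontal axis, 4 pools a side) and in untreated mice (vertical axis, 2 pools a side) for the 91 genes called after TLI that could be fitted in both, each point a gene, orange where higher and blue where lower in DC3 after TLI. All but 1 of the points lie in the quadrants of equal direction.

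Beside the other sorted populations of the same TLI mice, which were not tested here against DC3, Cd209a, S100a4 and Clec4b1 had DC3 levels above those of DC1a and below those of DC2. Cd209a was 109.9 to 218.5 CPM in DC3, 86 to 293.7 CPM in DC1b cells (CD8Int CD172+) and 852.7 to 1668 CPM in DC2 cells (CD8lo CD172hi). S100a4 was 134.5 to 317.7 CPM in DC3, 363.9 to 655.3 CPM in DC1b and 786.8 to 1813 CPM in DC2. Clec4b1 was 92.7 to 323.6 CPM in DC3, 165.9 to 296.2 CPM in DC1b and 553.8 to 1361 CPM in DC2. Sh2d1b1 and Cd244a were also lower in DC3 than in DC2. Sh2d1b1 was 12.1 to 42.2 CPM in DC3, 61.8 to 124.7 CPM in DC1b and 65.8 to 150.5 CPM in DC2. Cd244a was 82.9 to 93.6 CPM in DC3, 76.3 to 115.3 CPM in DC1b and 166 to 287.5 CPM in DC2. These genes do not stand for all genes that rose. Anxa2 was 716.2 to 3163 CPM in DC3 and 449.8 to 542.8 CPM in DC2. Anxa1 was 1451 to 2833 CPM in DC3 and 534 to 933.2 CPM in DC2. Vim, S100a10, Cd7 and Klrd1 overlapped between DC3 and DC2. DC2 cells had TLI libraries of pools 1, 3 and 4 only. Cxcl9 was 21.8 to 41.1 CPM in DC3, 76.5 to 200.5 CPM in DC1b and 25.6 to 99.1 CPM in DC2, so DC3 overlapped with DC2 for this gene.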

How the data were processed

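Sorted spleen cells of pooled Balb/C mice were profiled by RNA-seq (SMARTseq v4 cDNA, KAPA HyperPlus libraries, per the labels). The authors trimmed reads with Trimmomatic, aligned them to GRCm38 with HISAT2 and deposited estimated counts per gene from StringTie, unscaled. These were whole numbers and were used as deposited. Gene names and positions came from GENCODE M21 (GRCm38), which matched 47310 of 47729 identifiers. Libraries were compared with edgeR 4.0.16 in R 4.3.3 (TMM scaling, filterByExpr, quasi-likelihood test, batch term), tested on simulated counts. Folds of means raised each mean to at least 3 counts per library. At 21107794 to 36997890 counts per library, floors cover counting error only, and the SE of a fitted fold includes the spread between pools. Named genes were the 12 largest increases and 12 largest decreases in mean CPM among genes called, alike in all 4 pools and at 5 CPM or more in the higher population, without immunoglobulin, T-cell receptor or placeholder symbols, the 4 of highest level in each direction, and, in 26 gene lists, the defining members and up to 4 called members. A few results under this rule are not reported here. The members and lists were chosen with earlier results of these data known, and the promoter motifs after seeing the data. The labels give same-numbered DC3 and DC1a libraries as from the same pool of mice, so the numbers pair them: deviations from the group means correlated by 0.289, 0.499, 0.276 and 0.331 within pools 1 to 4, and by 0.151 and -0.0275 after taking out batch. Pools were not stated to be independent beyond their labels, so p-values measure the spread between these pools. Alternatives were DESeq2 1.42.0, limma 3.58.1 (voom), other scalings, filters and sets of libraries, and each library left out.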

Additional observations from a re-analysis of the deposited data

Results flagged for a closer look

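S100a4 in the DC3 library of pool 2 stood apart from the other 3 DC3 libraries. It was 134.5 CPM there and 276.3 to 317.7 CPM in the others, and on the log2 scale the gap to the nearest was 0.838 of the whole range of the group, above the limit of 0.829 for 4 samples. It was still above every DC1a value. This was the only such value among the 94 groups of 4 libraries examined, of which chance marks about 1 in 20.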

How the results depend on the processing

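The count of called genes, 95, depended on the test more than on the scaling. DESeq2 called 874 genes and limma-voom 228, which held 92 and 90 of the 95. The replicate block (pool) called 15, the fit with no batch term and no block 17, batch 1 alone 0 and batch 2 alone 1, and testing for a fold over 2 left 35. Without 1 library the count ran from 6 to 73, with 6, 8, 13 and 10 without DC1a pools 1 to 4 and 54, 73, 47 and 16 without DC3 pools 1 to 4, and it was 12 without pool 1 (an alternative chosen after seeing the data). Size factors of the RLE kind (93), library totals (88), no filter (134), a minimum of 10 counts (135), all 15 TLI libraries (104) and all 12 DC3 and DC1a libraries (137) stayed within 1.5 times. Of the 32 genes named for size or level, 3 were called with the replicate block, 19 with at least 10 counts in every library (the others could not be fitted), 7 with no batch term and no block, 0 in batch 1 alone, 0 in batch 2 alone, 2 without pool 1, and 1 to 19 without 1 library. Among the 480 list genes tested, 28 were called, and 6 were called with the replicate block (5 of the 28, and Iglc1), 120 with DESeq2 (28 of the 28), 49 with limma-voom (25 of the 28), 6 with no batch term and no block, 0 in either batch alone, 4 without pool 1 (3 of the 28), and 1 to 22 without 1 library. The test between treatments called 0 genes by edgeR, 219 by DESeq2, 14 with no filter and 0 to 1 without 1 library (1 without untreated DC3 pool 2 and 1 without TLI DC3 pool 3), and 0 with the replicate block. The test between batches called 0 by edgeR, 269 by DESeq2, 5 with no filter and 0 with the replicate block. Of the 95 genes, all had the same direction under each of these alternatives in which they could be fitted. Most alternatives refit the libraries in which the 95 were chosen, so equal direction there is no separate test. The causes were not tested, beyond the smaller number of libraries in the fits of 1 batch or without a library. At 3 counts per library, levels under 0.0811 to 0.142 CPM were not measurable, and 4 pools a side in 2 batches limit the precision of every fold.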
